A study of Mus musculus with 8 samples.

Results

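The genes described here are 32 enzymes, regulators and a transporter of lipid synthesis, chosen by symbol: 20 of the cholesterol pathway and 12 of the fatty acid pathway. All 32 were found among the 55401 genes of the deposited count table, and all 32 passed the filter on low counts that left 16964 genes for testing. RNA was sequenced from 8 libraries of mouse airway cells collected at day 10 after tamoxifen. The 4 mutant-labelled libraries have the genotype Scgb1a1cre; Cdh1F/F, with both alleles of Cdh1 floxed, and the 4 control libraries have the genotype Scgb1a1cre; Cdh1F/+, with a single floxed allele. Tamoxifen and a Cre recombinase under Scgb1a1, the gene of the main secretory protein of airway club cells, are common to both groups. Cdh1 encodes the epithelial adhesion protein E-cadherin. The series text speaks of depleting immune and endothelial cells, selecting on EPCAM and sorting by GFP, but the fraction in each library is not stated, nor are the ages of the animals.

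Cells build cholesterol from acetyl-CoA. The mevalonate steps give isoprenoid units, these are joined to squalene, squalene is closed to lanosterol, and a second set of enzymes trims lanosterol to cholesterol. Fatty acid synthesis starts from the same acetyl-CoA, and its products are elongated and desaturated. Both pathways are driven by the SREBP transcription factors, which INSIG proteins hold in the endoplasmic reticulum when sterols are plentiful, and in the lung the alveolar type 2 cell draws on both to make surfactant lipid.

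Cdh1 (GRCm38 chromosome 8, 106603351 to 106670246, plus strand) stood at 406.4, 409.8, 401.5 and 395.9 CPM (counts scaled to a common library size) in mutant-labelled libraries 1 to 4, and at 321.8, 428.4, 388.4 and 395.4 CPM in controls 1 to 4. The groups overlapped (log2 fold change 0.07 ± 0.09 SE, adjusted p = 0.648), so the targeted gene gave no check of the labels, and a count over the whole gene need not show a deletion of part of it. Total counts ran between 15111663 and 21673654. Sftpc, the surfactant gene of alveolar type 2 cells, was abundant under the label of airway cells, at 14445 to 19154 CPM in mutant-labelled libraries and at 13892 to 20589 CPM in controls. The club cell gene Scgb1a1 lay at 3755 to 4419 CPM in mutant-labelled libraries and at 12874 to 14148 CPM in controls. The controls were uneven. On the first principal component, with 48.8% of the variance, controls 2 and 3 lay at 46.5 and 53.7, controls 1 and 4 at 4.1 and 9.8, and all mutant-labelled libraries between -31.6 and -24.5. In such mixed samples, fewer cells of a type and less RNA per cell cannot be told apart.

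The cholesterol enzymes Mvd, Fdps and Sqle rose 1.57-fold, 1.598-fold and 1.41-fold in mutant-labelled libraries, the first pair from the isoprenoid steps and the last from the oxidation of squalene. In the fatty acid pathway, the desaturase gene Scd1 rose 2.0-fold and Acss2, an enzyme that makes acetyl-CoA from acetate, fell to 0.613 of the control level. Among the 20 cholesterol genes, 3 passed a threshold of 0.05 on the Benjamini-Hochberg adjusted p of edgeR's quasi-likelihood test, all as higher, and among the 12 fatty acid genes 1 passed as higher and 1 as lower. The calls of the cholesterol genes depended on the libraries: with 1 library left out, 0 to 12 passed, and 0 in 4 of those 8 fits. The share of all genes called higher in those fits ran from 3% to 8.86%. Over all genes tested, 7.81% were called, 5.45% as higher and 2.36% as lower. The median log2 fold change was 0.33 for the cholesterol genes and 0.03 for the fatty acid genes, against -0.01 for all genes tested. The estimate was positive for 18 of 20 cholesterol genes and for 7 of 12 fatty acid genes, against 49.1% of all genes tested. Correction for GC content left 18 and 5 positive and turned the fatty acid median to -0.03.

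**Figure D1:**
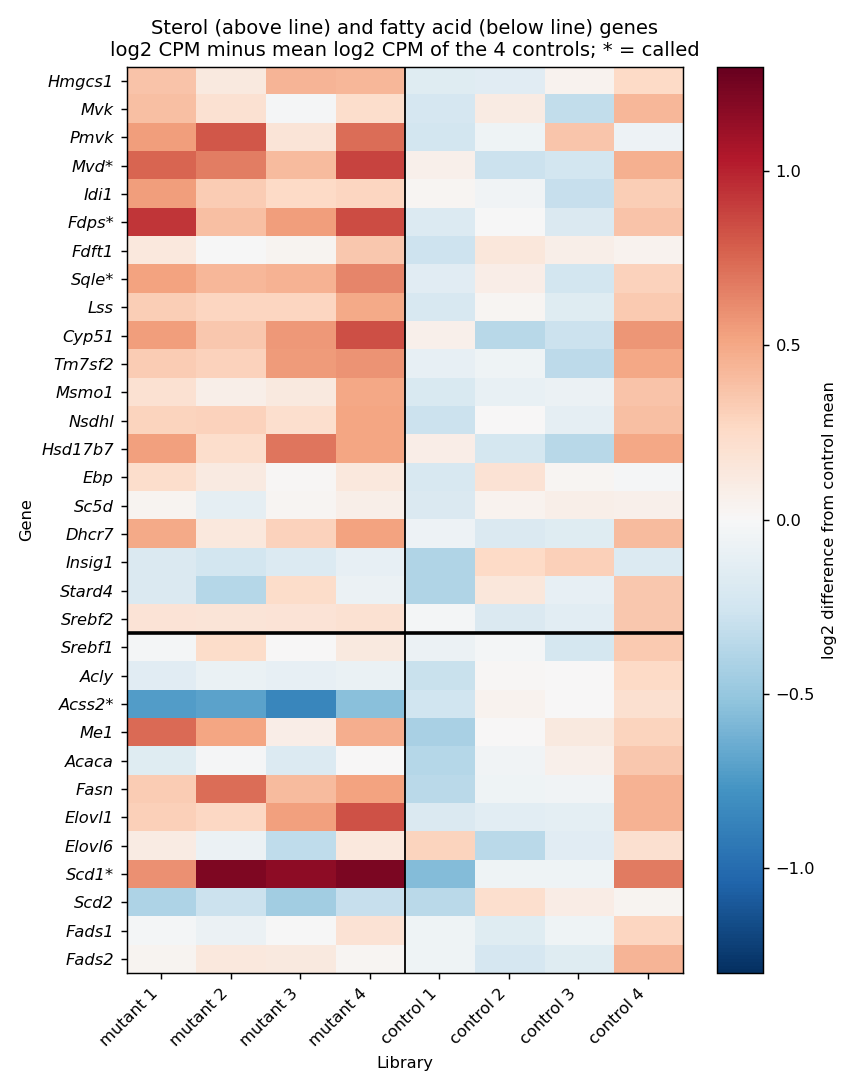
Level of each of the 32 genes (rows) in each of the 8 libraries (columns), as the log2 CPM minus the mean log2 CPM of the 4 controls for that gene; red is higher and blue lower, asterisks mark genes called at an adjusted p under 0.05, and the thick line parts the sterol genes from the fatty acid genes. The sterol rows are mostly red in the mutant-labelled columns and also in control 4, and Acss2 is blue in all 4 mutant-labelled columns.

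The promoters of these genes were searched for known motifs. A window from RefSeq (GRCm38.p6) was found for 25 of the 32 genes, 16 of the cholesterol and 9 of the fatty acid pathway. These 25 genes had 32 windows in all, as some have several start sites. A gene was counted for a motif if any of its windows held it. The 16 include the regulators Insig1 and Srebf2. Of the 5 called genes only Mvd and Acss2 had a window, and Fdps, Sqle and Scd1 are not covered. The 250 bases before each start site were searched on both strands. The CCAAT box (CCAAT, or ATTGG on the other strand), to which the factor NF-Y binds, occurred in 16 of 16 cholesterol genes and in 5 of 9 fatty acid genes, against 37.5% of the 27025 genes in the table. The sterol response element in its strict form (TCACNCCAC or GTGGNGTGA), the site of SREBP binding, occurred in 1 of 16 cholesterol genes, Hmgcs1, and in 0 of 9 fatty acid genes, against 1.22% of all genes. The E box CACGTG, the same on both strands, occurred in 4 of 16 cholesterol genes (Hsd17b7, Sc5d, Dhcr7 and Insig1) and in 0 of 9 fatty acid genes, against 6.86% of all genes. A match describes the letters only, and base composition was not matched in these shares. The windows of 4 genes are printed 5′ to 3′ on the strand of the gene and end at the base before the start site: Mvd as the called mevalonate enzyme (chr8:122443423-122443672, minus strand), Hmgcs1 as the gene with the strict sterol element (chr13:119690101-119690350, plus strand), Fasn as the central fatty acid enzyme (chr11:120824548-120824797, minus strand) and Acss2 as the gene that fell (chr2:155517793-155518042, plus strand). Capitals mark the CCAAT boxes in either orientation and, in Hmgcs1, also the sterol element TCACCCCAC, whose first base lies at -137.
Mvd: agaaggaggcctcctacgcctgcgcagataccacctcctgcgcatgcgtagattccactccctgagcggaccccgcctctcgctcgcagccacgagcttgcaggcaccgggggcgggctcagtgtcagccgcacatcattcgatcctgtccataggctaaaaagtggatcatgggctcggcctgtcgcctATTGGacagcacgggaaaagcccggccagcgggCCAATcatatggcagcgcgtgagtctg
Hmgcs1: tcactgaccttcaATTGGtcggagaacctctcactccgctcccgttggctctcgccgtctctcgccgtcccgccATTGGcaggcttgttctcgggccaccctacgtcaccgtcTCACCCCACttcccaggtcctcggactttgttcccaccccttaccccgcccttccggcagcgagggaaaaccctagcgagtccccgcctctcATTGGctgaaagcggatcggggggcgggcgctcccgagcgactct
Fasn: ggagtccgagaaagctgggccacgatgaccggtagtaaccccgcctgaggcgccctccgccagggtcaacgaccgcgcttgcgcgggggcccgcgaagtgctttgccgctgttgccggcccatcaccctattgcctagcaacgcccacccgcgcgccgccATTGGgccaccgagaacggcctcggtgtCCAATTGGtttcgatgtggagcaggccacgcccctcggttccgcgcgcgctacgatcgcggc
Acss2: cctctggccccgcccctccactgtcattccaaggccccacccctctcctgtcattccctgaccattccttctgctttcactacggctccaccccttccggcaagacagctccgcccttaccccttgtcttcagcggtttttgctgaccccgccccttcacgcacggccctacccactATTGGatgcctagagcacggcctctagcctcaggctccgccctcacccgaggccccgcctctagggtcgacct

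Mvd holds 2 CCAAT boxes close to its start site, whose first bases lie at -60 and -27. Hmgcs1 holds 3, at -237, -176 and -45, on either side of the sterol element. Fasn holds 3, of which those at -62 and -59 share bases, and Acss2 a single box at -73. Mvd, which rose, Acss2, which fell, and Hmgcs1 and Fasn, which did not pass the test, thus all hold a CCAAT box.

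**Figure D2:**
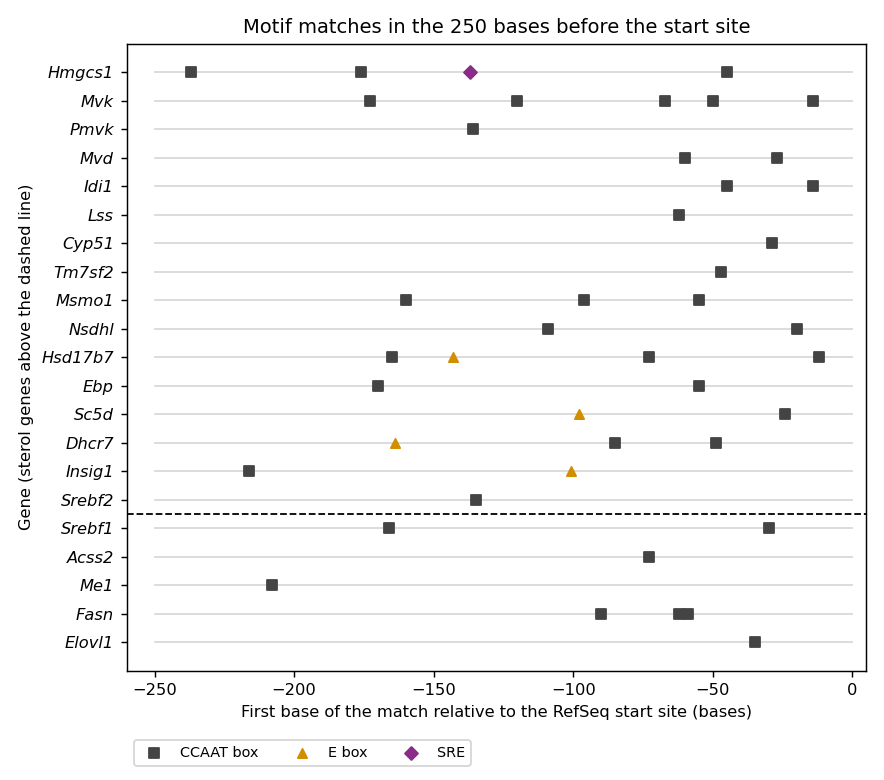
Positions of motif matches in the 250 bases before the start site (x axis, in bases, with the start site of each window at 0) for the 21 genes with at least 1 match (y axis). Squares are CCAAT boxes, triangles E boxes and the diamond the strict sterol response element. All windows of a gene share 1 row, and the matches of Dhcr7 and of Srebf1 come from different windows. All 16 sterol genes with a window have a CCAAT box, and the sterol response element appears in Hmgcs1 alone at -137.

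The early cholesterol pathway runs through 9 enzymes up to lanosterol. The 9 estimates were all positive, with a median log2 fold change of 0.34, and 3 of the 9 passed the test. Mvd, which decarboxylates phosphorylated mevalonate to give the isoprenoid unit (chromosome 8, 122433601 to 122443422, minus strand), stood at 28.8, 27.2, 22.8 and 31.5 CPM in mutant-labelled libraries, against 17.9, 14.1, 14.5 and 23.5 CPM in controls. Mutant-labelled library 3 lay just below control 4, and all other mutant-labelled values were above all controls. The mean was 27.6 ± 3.64 CPM in mutant-labelled libraries and 17.5 ± 4.36 CPM in controls (SD, n = 4 each), a 1.57-fold difference (log2 0.65 ± 0.17 SE, adjusted p = 0.0461, edgeR).

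Fdps joins isoprenoid units to farnesyl diphosphate, from which both sterols and protein prenyl groups are made (chromosome 3, 89093588 to 89101959, minus strand). Its values were 11.97, 8.23, 9.13 and 11.3 CPM in mutant-labelled libraries, against 5.54, 6.27, 5.53 and 8.10 CPM in controls. The groups did not overlap, although the lowest mutant-labelled library and control 4 were close. The fold was 1.598 (log2 0.68 ± 0.17 SE, adjusted p = 0.0448, edgeR). Another annotated gene, Gm43738, covers 26.7% of the exon bases of Fdps, and read pairs over both were not counted.

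Sqle, a slow and regulated step that oxidises squalene before ring closure, is on chromosome 15 (59315077 to 59331192, plus strand). It reached 58.9, 55.2, 56.2 and 63.9 CPM in mutant-labelled libraries, against 37.1, 43.5, 34.9 and 50.5 CPM in controls. The mutant-labelled libraries were close together and all above the controls, of which control 4 was the highest. The fold was 1.41 (log2 0.50 ± 0.12 SE, adjusted p = 0.0305, edgeR). Over all genes tested, all mutant-labelled libraries exceeded all controls in 9.75%, and here in 2 of 20 cholesterol genes, Fdps and Sqle.

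**Figure D3:**
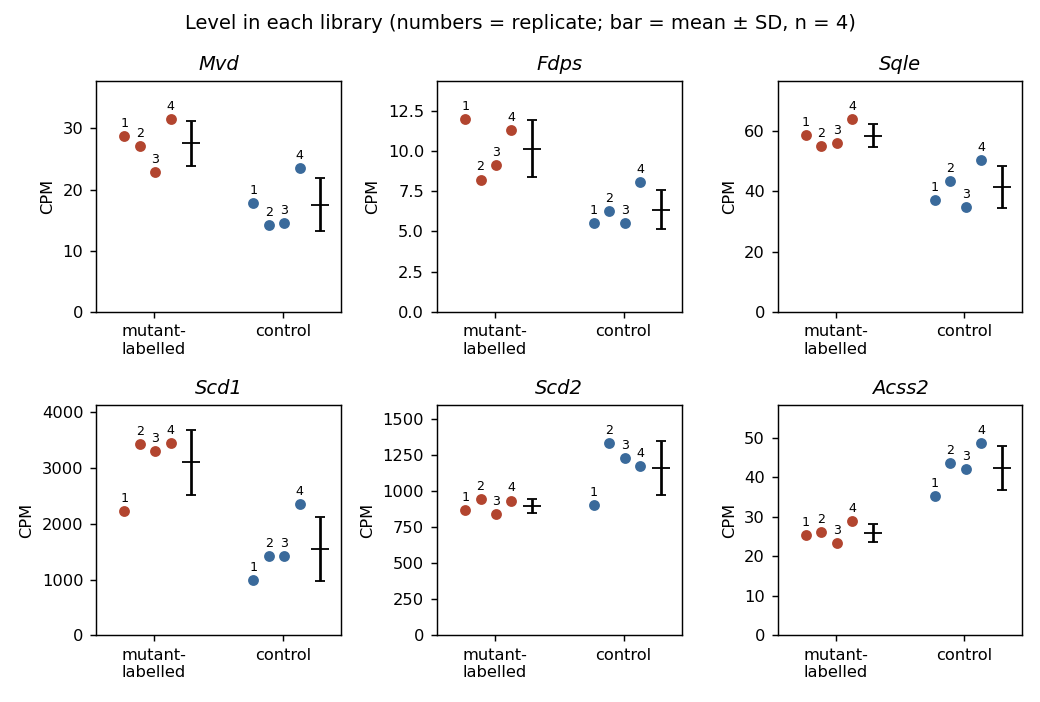
CPM in each library (y axis, from 0) of Mvd, Fdps, Sqle, Scd1, Scd2 and Acss2, with mutant-labelled libraries left and controls right; digits are replicate numbers and bars the mean ± SD of 4 libraries. Fdps and Sqle have every mutant-labelled point above every control, Acss2 has every mutant-labelled point below, and control 4 is the highest control in all panels but that of Scd2.

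The other 6 early enzymes did not pass the edgeR test. Pmvk, the second kinase of mevalonate, had 94.6, 113.3, 72.6 and 107.5 CPM in mutant-labelled libraries, against 55.1, 62.5, 83.1 and 61.8 CPM in controls (log2 0.56 ± 0.16 SE, adjusted p = 0.0636, edgeR). Control 3 was the highest control here, and library 3 of the mutant-labelled group lay below it. It was called higher by DESeq2 (adjusted p = 0.0158), under total count scaling (0.0339) and without mutant-labelled library 3 (0.0271) or control 3 (0.0253). Hmgcs1, which makes HMG-CoA at the head of the pathway, had 104.2, 88.3, 109.5 and 109.3 CPM in mutant-labelled libraries, against 72.6, 72.9, 83.2 and 96.7 CPM in controls (log2 0.34 ± 0.11 SE, adjusted p = 0.0932, edgeR). Only control 4 reached into the mutant-labelled range. The estimates were 0.34 for Idi1, the isomerase of the isoprenoid unit, 0.33 for Lss, which closes squalene epoxide to lanosterol, 0.18 for Mvk, the first mevalonate kinase, and 0.13 for Fdft1, the squalene synthase (log2, adjusted p of 0.127 to 0.524, edgeR).

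The 8 enzymes after lanosterol all had positive estimates, except that Sc5d turned to -0.0018 under RLE scaling and to -0.0011 with DESeq2. Their median log2 fold change was 0.33, and by edgeR 0 of 8 were called and 4 of 8 had an unadjusted p under 0.05. Of all 16964 genes tested, 4283 had an unadjusted p under 0.05 in that test. Without control 4 the same test called Cyp51, Tm7sf2, Nsdhl, Hsd17b7 and Dhcr7, and DESeq2 on all libraries called none of the 8. Cyp51, which takes a methyl group off lanosterol, had 59.2, 51.7, 60.0 and 72.5 CPM in mutant-labelled libraries, against 42.5, 31.8, 33.6 and 60.5 CPM in controls (log2 0.53 ± 0.20 SE, adjusted p = 0.132, edgeR). Its controls fell into a low trio and a high control 4, which was above mutant-labelled libraries 1, 2 and 3. Hsd17b7 and Nsdhl, which help remove the next methyl groups, had estimates of 0.46 and 0.31, and Msmo1, which acts with them, 0.22. The reductases Tm7sf2 and Dhcr7 had 0.41 and 0.35. Ebp, the isomerase, and Sc5d, the desaturase next to it, were nearest to 0, at 0.12 and 0.01. Sc5d values were 63.7, 57.6, 63.5 and 65.8 CPM in mutant-labelled libraries and 54.5, 64.2, 65.8 and 65.1 CPM in controls, and its 95% interval of the log2 fold change ran from -0.17 to 0.18.

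**Figure D4:**
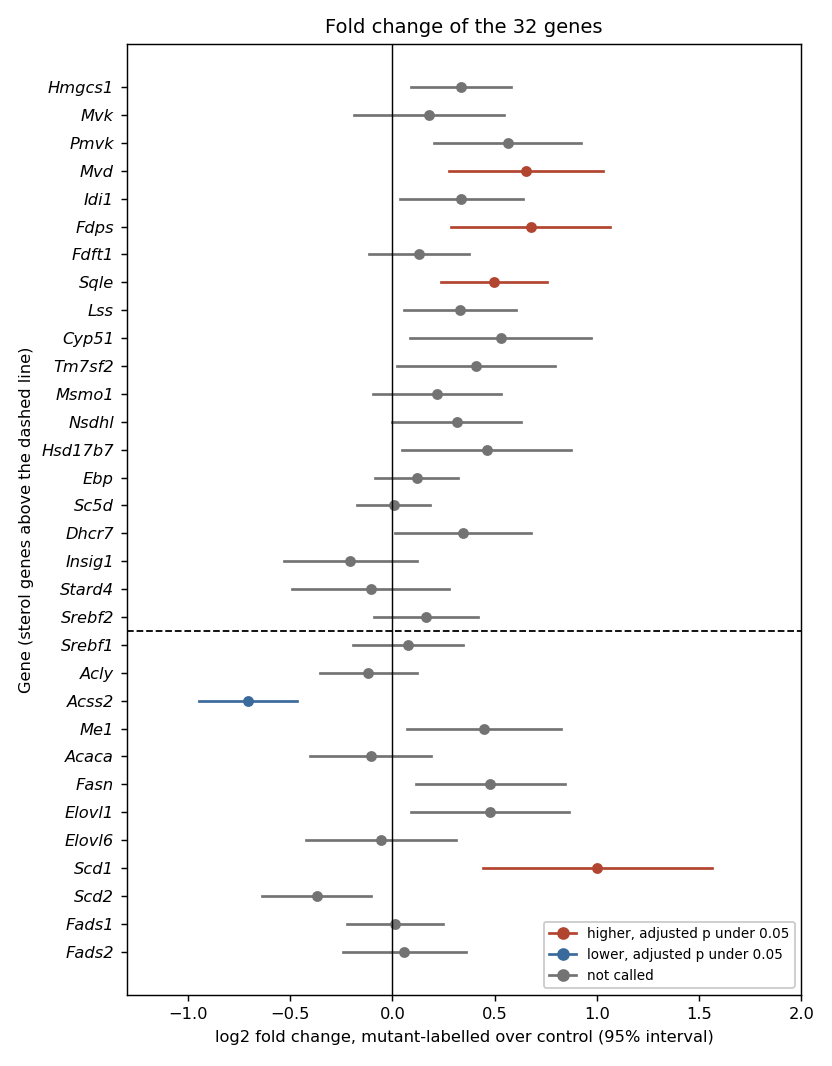
log2 fold change of each gene, mutant-labelled over control (x axis), with its 95% interval from the edgeR fit; genes run down the page by pathway and step, red marks genes called higher, blue the gene called lower and grey those not called. The estimates of all 17 sterol enzymes lie right of 0, that of Sc5d so close that it turned negative under RLE scaling and with DESeq2, while the fatty acid genes spread between -0.71 for Acss2 and 1.001 for Scd1.

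The regulators and the carrier of the cholesterol pathway, 3 genes, had 1 positive and 2 negative estimates, and none passed the test (0 of 3 also at an unadjusted p under 0.05 and with DESeq2). Insig1, a target and a brake of the SREBP proteins, had 62.3, 60.2, 63.0 and 65.9 CPM in mutant-labelled libraries, against 54.2, 84.9, 88.2 and 62.9 CPM in controls (log2 -0.21 ± 0.14 SE, adjusted p = 0.405, edgeR). The mutant-labelled libraries were nearly equal, controls 2 and 3 stood above them and control 1 below. Without controls 2 and 3 the estimate was 0.10, and without controls 1 and 4 it was -0.46 and called lower. Stard4, a carrier of cholesterol between membranes, had an estimate of -0.11, and Srebf2, the gene of the SREBP form that mainly serves cholesterol synthesis, 0.16. Srebf2 was even across the mutant-labelled libraries, at 246.7 to 252.5 CPM, and ran between 193.1 and 280.3 CPM in controls.

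Control 4 set most of the overlap in the cholesterol enzymes. It was the highest control for 13 of 17 enzymes and lay within the mutant-labelled range for 12, while control 1 lay below that range for 17 of 17. The mean log2 CPM over the 17 enzymes was 5.23, 5.08, 5.10 and 5.31 in mutant-labelled libraries, against 4.68, 4.76, 4.68 and 5.11 in controls. Controls 1 to 3 lay below all mutant-labelled libraries, and control 4 lay above libraries 2 and 3 of that group. Controls varied more than mutant-labelled libraries for 19 of 20 cholesterol genes and 12 of 12 fatty acid genes, against 74.4% of all genes tested. Without control 4, 12 of 20 cholesterol genes were called higher, against 7.05% of all genes in that fit. Without mutant-labelled library 1, 2 or 4, or control 2, 0 of 20 were called, against 3%, 3.12%, 3.36% and 3.61% of all genes as higher. Without library 3 of that group or control 3 the count was 1 (Pmvk), against 4.07% and 3.62% of all genes. Without control 1 the count was 2, against 8.86% of all genes. Mvd and Sqle kept their calls without control 1 or 4 and Fdps without control 4, and with any other single library left out each lost it (adjusted p of 0.0513 to 0.139, edgeR). Without controls 2 and 3 together 0 were called, against 3.56% of all genes as higher in that fit. Without controls 1 and 4 together 12 were called higher and 1 lower, against 21.5% and 19.2% of all genes in that fit. The medians stayed positive in all of these fits, between 0.23 and 0.46.

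**Figure D5:**
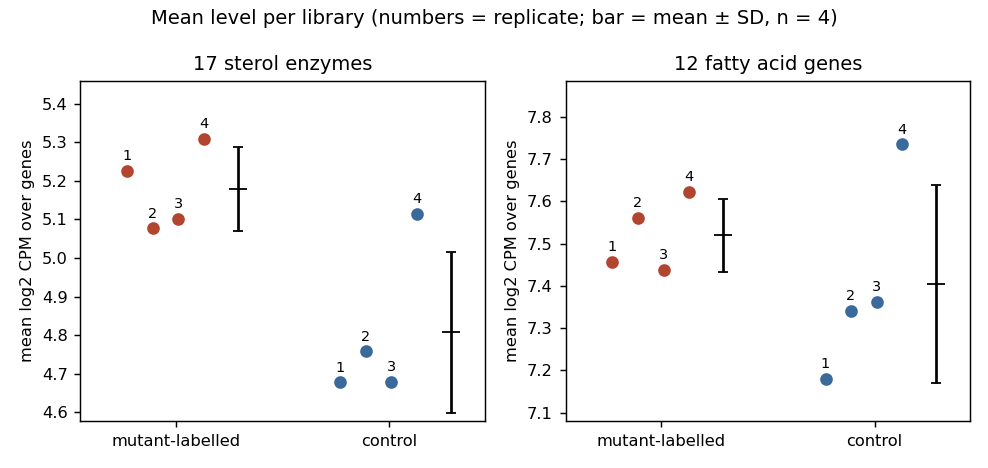
Mean log2 CPM per library over the 17 sterol enzymes (left) and the 12 fatty acid genes (right), with mutant-labelled libraries left of controls in each panel; digits are replicate numbers, bars the mean ± SD of 4 libraries, and the y axes do not start at 0. For the sterol enzymes control 4, at 5.11, lies among the mutant-labelled points and the other controls below them, and for the fatty acid genes control 4, at 7.74, is above every other library.

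The supply of acetyl-CoA and reducing power opens the fatty acid pathway. Acss2 (chromosome 2, 155517948 to 155585724, plus strand) had 25.4, 26.1, 23.4 and 29.0 CPM in mutant-labelled libraries, against 35.3, 43.5, 42.1 and 48.6 CPM in controls. Every mutant-labelled value lay below every control, as in 7.07% of all genes tested. The log2 fold change was -0.71 ± 0.11 SE (adjusted p = 0.00421, edgeR). It was called lower in every alternative run, with an adjusted p between 6.1e-07 and 0.0221. Acss2 is itself a known SREBP target in mammals, and it fell while Mvd, Fdps, Sqle and Scd1 rose. Whether SREBP activity differed between the groups was not tested. Other annotated genes, among them the antisense Acss2os, cover 9.12% of its exon bases, and strand was not used in counting.

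Acly, which makes acetyl-CoA from citrate, did not pass the test (270.5, 281.9, 277.7 and 280.8 CPM in mutant-labelled libraries, against 244.9, 302.4, 300.5 and 357.9 CPM in controls, log2 -0.12 ± 0.11 SE, adjusted p = 0.516, edgeR). The ratio of Acss2 to Acly, chosen after the values were seen, was 0.0941, 0.0924, 0.0841 and 0.103 in mutant-labelled libraries, against 0.144, 0.144, 0.140 and 0.136 in controls. On this ratio the controls were nearly equal and did not overlap with the mutant-labelled libraries. Me1, which makes NADPH for synthesis, had 120.3, 102.6, 76.5 and 100.2 CPM in mutant-labelled libraries, against 54.0, 72.3, 78.9 and 88.0 CPM in controls (log2 0.45 ± 0.17 SE, adjusted p = 0.134, edgeR). Srebf1, the gene of the SREBP form tied to fatty acid synthesis, differed little (log2 0.08 ± 0.12 SE, adjusted p = 0.728, edgeR).

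The chain itself is built by Acaca, which makes malonyl-CoA, and Fasn, the synthase. Fasn had 818.4, 1079, 864.3 and 936.4 CPM in mutant-labelled libraries, against 510.8, 627.3, 628.6 and 888.4 CPM in controls (log2 0.48 ± 0.16 SE, adjusted p = 0.105, edgeR). As in the sterol enzymes, controls 1 to 3 lay below all mutant-labelled libraries and control 4 within their range. Fasn was called higher by DESeq2 (adjusted p = 0.0451) and without control 4 (0.0144). Acaca did not share this pattern, at 72.7 to 82.5 CPM in mutant-labelled libraries and 63.7 to 104.4 CPM in controls (log2 -0.11 ± 0.13 SE). Elovl1, an elongase of very long chains, had 388.0, 377.7, 454.2 and 554.0 CPM in mutant-labelled libraries, against 274.2, 283.5, 287.0 and 429.4 CPM in controls (log2 0.48 ± 0.17 SE, adjusted p = 0.122, edgeR). Elovl6, which lengthens palmitate, had an estimate of -0.06, and the desaturases of polyunsaturated chains Fads1 and Fads2 had 0.01 and 0.06.

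The desaturases of saturated chains went apart. Scd1, which puts a double bond into stearate and palmitate (chromosome 19, 44394455 to 44407879, minus strand), had 2231, 3424, 3294 and 3438 CPM in mutant-labelled libraries, against 997.2, 1419, 1415 and 2358 CPM in controls. Mutant-labelled library 1 lay below control 4, and otherwise the groups were apart. The mean was 3097 ± 581 CPM in mutant-labelled libraries and 1547 ± 575 CPM in controls (SD, n = 4 each), with a log2 fold change of 1.001 ± 0.25 SE (adjusted p = 0.0412, edgeR). Scd1 lost the call without mutant-labelled library 2, 3 or 4 or control 2 or 3 (adjusted p of 0.0884 to 0.105), without controls 2 and 3 together (0.238), with control 1 and the fourth mutant-labelled library left out (0.0813), and without the filter on low counts (0.149). Scd2, its neighbour on chromosome 19, had 868.3, 944.4, 842.1 and 935.9 CPM in mutant-labelled libraries, against 901.5, 1334, 1232 and 1175 CPM in controls (log2 -0.37 ± 0.12 SE, adjusted p = 0.0900, edgeR). Control 1 lay within the mutant-labelled range and controls 2, 3 and 4 above it. DESeq2 called the gene lower, as did edgeR without the filter on low counts and without control 1. It was also called lower with controls 1 and 4 left out, and with control 1 and mutant-labelled library 4 left out.

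The ratio of Scd1 to Scd2, also chosen after the values were seen, was 2.57, 3.63, 3.91 and 3.67 in mutant-labelled libraries, against 1.11, 1.06, 1.15 and 2.01 in controls. It did not overlap between groups, and control 4 stood apart from the other controls. Both genes are close relatives, and read pairs that map to several places were not counted, so sequence they share is missing from either level.

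Per kilobase of gene length, on the scale of CPM per kilobase (RPKM), the fatty acid genes Scd1, Scd2, Elovl1 and Fasn held the top 4 places in both groups. Scd1 averaged 633.0 RPKM in mutant-labelled libraries and 316.3 RPKM in controls. Scd2 came next in both groups, at 164.3 RPKM in mutant-labelled libraries, just above Elovl1 at 162.7 RPKM, and at 212.4 RPKM in controls. The level of Scd1 thus stood further above that of Scd2 in the mutant-labelled group. The highest cholesterol gene was Pmvk, at 56.6 RPKM in mutant-labelled libraries and 38.3 RPKM in controls. The lowest was Fdps, at 2.42 RPKM in mutant-labelled libraries and 1.51 RPKM in controls. Its full length was used, although pairs over the 26.7% of its exon bases shared with Gm43738 were not counted, so its RPKM may be too low. Acss2 averaged 2.55 RPKM in mutant-labelled libraries and 4.17 RPKM in controls, far below Acly at 52.6 RPKM in mutant-labelled libraries and 57.1 RPKM in controls.

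Other lists of lipid metabolism held calls in both directions, beside 7.81% of all genes tested that were called. Of 10 further sterol synthesis and SREBP-processing genes tested, 1 was called, as lower: Rnf145, a ubiquitin ligase linked to cholesterol sensing (log2 -0.32 ± 0.08 SE, adjusted p = 0.0426, edgeR). Of 9 genes of sterol export and the LXR sterol receptors, Npc2, which binds cholesterol in lysosomes and is also secreted, rose 1.47-fold, and Nr1h3, the gene of LXR alpha, and its target Mylip fell (log2 -0.53 and -0.60). Of 18 further fatty acid genes tested, the acyl-CoA ligase Acsl4 and the dehydratase Hacd1 rose (log2 0.41 and 0.47), while Acsl1, another acyl-CoA ligase, and Thrsp, a nuclear protein that tracks lipogenesis in the liver, fell (log2 -0.82 and -1.18). Thrsp was at 9.15, 12.4, 6.39 and 10.6 CPM in mutant-labelled libraries, against 13.4, 20.3, 22.0 and 31.7 CPM in controls, with no overlap.

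Of 15 genes of glycerolipid synthesis, Pcyt1b, a phosphatidylcholine enzyme, rose 1.81-fold, and Dgat2, which makes triglyceride, and Chpt1, which makes phosphatidylcholine, fell (log2 -0.63 and -0.49). Of 15 genes of fatty acid oxidation, 2 were called, both as lower, Acadm and Hadhb (log2 -0.42 and -0.32). Over all genes tested, 5.45% were called higher and 2.36% lower. Estimates were negative for 13 of the 15, against 8642 of all 16964 genes tested. With 1 library left out, the lower genes numbered 0 to 5 for oxidation (0 without mutant-labelled library 1 or 3, 5 without control 4), 0 to 4 for glycerolipid synthesis and 0 to 4 for sterol export. The share of all genes called lower in those fits ran from 0.85% to 6.52%. The median log2 fold change was -0.10 for the further sterol genes, -0.05 for the further fatty acid genes, -0.01 for the glycerolipid genes and -0.17 for oxidation, against -0.01 for all genes tested.

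Markers of cell types moved with the groups, and their part in the lipid results was not tested. The counts below stand beside 5.45% of all genes tested called higher and 2.36% called lower. For the 11 alveolar type 2 markers tested, the summed level was 32306 to 41035 CPM in mutant-labelled libraries and 29236 to 41248 CPM in controls, and 3 of 11 were called, all as higher (Sftpd, Cxcl15 and Egfl6). For club cells 7 of 8 markers were called, all as lower (Pon1, Scgb1a1, Cyp2f2 and Cbr2 with the lowest adjusted p), with sums of 7527 to 9426 CPM in mutant-labelled libraries and 24062 to 26300 CPM in controls. Goblet markers, led by Dmbt1, Muc5ac, Muc5b and Agr2, were called higher in 7 of 7 (643.5 to 1057 CPM in mutant-labelled libraries against 122.9 to 230.7 CPM in controls), ciliated markers, led by Foxj1, Dynlrb2, Cfap53 and Lrrc23, in 7 of 8 (789.8 to 1040 CPM in mutant-labelled libraries against 563.0 to 751.9 CPM in controls) and general epithelial markers, led by Cldn7, Krt18, Krt8 and Epcam, in 5 of 6 (1388 to 1652 CPM in mutant-labelled libraries against 680.5 to 947.3 CPM in controls). Macrophage markers, whose cells also handle surfactant lipid, were called higher in 4 of 8, Plet1, Mrc1, Chil3 and Cd68 (880.1 to 1152 CPM in mutant-labelled libraries against 517.8 to 648.8 CPM in controls), and endothelial markers lower in 4 of 8, Tek, Ramp2, Cdh5 and Pecam1 (3453 to 3874 CPM in mutant-labelled libraries against 4269 to 5452 CPM in controls). The endothelial count ran from 0 to 7 with 1 library left out, against 0.85% to 6.52% of all genes as lower in those fits. DESeq2 called 8 of 8, against 5.54% of all genes as lower. Alveolar type 1 markers were called in 1 of 8, Rtkn2, as lower. Estimates were negative for 7 of 8, against 8642 of all 16964 genes tested. In 4 of 8 all mutant-labelled libraries lay below all controls, against 7.07% of all genes tested. The sums were 6119 to 6201 CPM in mutant-labelled libraries and 6215 to 7889 CPM in controls. Of the fibroblast markers 1 of 8 was called, Col3a1, as higher, and of the lymphoid markers 0 of 6, with 0 at an unadjusted p under 0.05 and 0 with DESeq2.

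Proliferation genes were called higher in 6 of 12, led by Aurka, Cdc20, Plk1 and Ccnb1, against 5.45% of all genes tested. With 1 library left out, 3 to 12 of 12 were called, 12 without control 1, against 3% to 8.86% of all genes. Their sum was 389.2, 338.0, 483.1 and 282.0 CPM in mutant-labelled libraries, against 307.0, 110.6, 81.9 and 161.1 CPM in controls. Control 1, the control with the highest sum, did not have high cholesterol enzymes, and control 4, the control with high cholesterol enzymes, had the second highest sum. Control 4 also stood apart in Fkbp5 and Zbtb16, from a list of genes that glucocorticoids induce, chosen after their values were seen. Fkbp5 was at 86.0 to 191.3 CPM in mutant-labelled libraries, at 50.6 CPM in control 4 and at 174.4 to 262.7 CPM in the other controls. Zbtb16 was at 128.9 to 242.3 CPM in mutant-labelled libraries, at 51.9 CPM in control 4 and at 235.1 to 300.3 CPM in the other controls. For Sgk1, Errfi1 and Mt1 of the same list, control 4 lay within the range of the other controls. For Tsc22d3, Klf9 and Mt2 of that list it was the lowest control. Tsc22d3 was at 660.9 CPM in control 4, against 780.1 to 1091 CPM in the other controls. Klf9 was at 238.9 CPM against 246.8 to 390.9 CPM, and Mt2 at 4.25 CPM against 4.27 to 12.8 CPM. Of the 8 genes of that list 1 was called, Mt1, a metallothionein, as higher, and of 13 clock genes Npas2 was called higher and Tef lower. Among all genes tested, 5.45% were called higher and 2.36% lower. Whether these differences bear on the lipid genes was not tested. Markers of adipocytes, which express many of the same lipogenic genes, summed to 60.3 to 121.0 CPM in mutant-labelled libraries and 121.0 to 195.8 CPM in controls, all 5 tested with negative estimates. By edgeR 0 of 5 were called, and DESeq2 called 3 lower. An unadjusted edgeR p under 0.05 was found for 4 of 5, against 4283 of all 16964 genes tested. Dlk1 of the type 2 list and Lep of the adipocyte list did not pass the filter on low counts.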

How the data were processed

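RNA-seq of 8 mouse libraries (4 mutant-labelled, 4 control) was analysed from the deposited table of raw counts per gene. These counts of read pairs were made by the authors with featureCounts 1.6.2 from STAR alignments, using GENCODE release M25 on GRCm38 and no strand, per the file headers; pairs mapping to several places or genes were not counted by its defaults. Genes overlapping on either strand therefore lose reads and antisense signal cannot be separated. The submitters' processing notes also name Bowtie2 and Cufflinks, and the labels name a stranded and an unstranded kit, without roles. Whether each library is a separate animal is not stated, so the tests rest on spread between libraries that may be technical. Symbols came from GENCODE M21 (99.53% of 55401 identifiers), coordinates and gene lengths from the deposited table, promoters from RefSeq.

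Total counts of 15111663 to 21673654 put the limit that a count of 0 allows (3 counts) at 0.138 to 0.199 CPM, which covers counting error alone. Within groups, any pair of libraries differed by a chi-square per gene of 4.88 to 45.58, and none was treated as a duplicate. Genes were filtered with filterByExpr (minimum count 10, total 15), scaled by TMM and tested with edgeR 4.0.16 (robust quasi-likelihood fit, group as the only term; R 4.3.3), with Benjamini-Hochberg adjustment over 16964 genes and a threshold of 0.05; fold changes are mutant-labelled over control, and SE was derived from the F statistic. CPM use TMM-scaled totals; the mean log2 CPM of a list adds a prior count of 2. Alternatives covered scaling, the filter, DESeq2 1.42.0, GC content, the replicate number as a term, and left-out libraries.

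The members and all lists were chosen with earlier results of these data known. All members are described. Further genes are named if called, at most 4 per list by lowest adjusted p. Cdh1, Sftpc and genes that failed the filter are also named, as are Fkbp5, Zbtb16, Sgk1, Errfi1, Tsc22d3, Klf9 and Mt2, chosen after their values were seen.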

Additional observations from a re-analysis of the deposited data

Results flagged for a closer look

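Each group of 4 libraries was examined for a single library far from the other 3, over all 32 genes, Cdh1, and a few ratios and list means, 76 groups in all. Of these 4 stood out, and chance gives about 1 in 20. Scd1 was low in mutant-labelled library 1, at 2231 CPM against 3294 to 3438 CPM in the other 3 mutant-labelled libraries. Elovl1 was high in control 4, at 429.4 CPM against 274.2 to 287.0 CPM in the other 3 controls. The ratio of Scd1 to Scd2 was high in control 4 too, at 2.01 against 1.06 to 1.15 in the other controls. Sc5d was low in control 1, at 54.5 CPM against 64.2 to 65.8 CPM in the other controls.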

How the results depend on the processing

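Acss2 was called lower in every alternative run. Mvd, Fdps, Sqle and Scd1 stayed positive in every one, but their calls rested on the libraries included. Leaving out each library in turn gave 0 to 12 cholesterol genes higher, 0 to 3 fatty acid genes higher and 1 to 2 lower, and 515 to 1517 of all genes higher and 146 to 1117 lower; the count of 12 came without control 4. Without controls 2 and 3, 0 cholesterol and 0 fatty acid genes were higher and 223 of all genes lower. Without controls 1 and 4, 12 cholesterol genes were higher and 1 lower, 4 fatty acid genes higher and 2 lower, and 3750 of all genes higher and 3338 lower. Without control 1 and mutant-labelled library 4, whose descriptions carry adjacent numbers, 0 and 0 were higher, 2 fatty acid genes lower and 625 of all genes lower. Without the low-count filter 0 fatty acid genes were higher and 2 lower. DESeq2 gave 2 fatty acid genes higher and 2 lower and 939 of all genes lower, so that 58.7% of its calls were higher, against 69.7%.

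The replicate numbers did not pair the libraries (correlations of deviations 0.0066, 0.129, -0.123 and 0.134; 2 of the 4 controls correlated best with the mutant-labelled library of their own number), and the replicate block gave 4 cholesterol and 2 fatty acid genes higher.

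Small estimates that were not called changed sign. Sc5d gave -0.0018 under RLE scaling, -0.0011 with DESeq2, -0.056 with controls 1 and 4 left out and -0.077 without control 1 and mutant-labelled library 4. Fads1 gave -0.0162 with GC correction, -0.092 with controls 2 and 3 left out and -0.070 without control 1 and mutant-labelled library 4, and Srebf1 -0.076 with GC correction and -0.0483 without controls 2 and 3. Insig1 gave 0.10 and Fads2 -0.13 without controls 2 and 3, Elovl6 0.21 and Cdh1 -0.020 with controls 1 and 4 left out, and Fdft1 -0.031 without control 1 and mutant-labelled library 4. With 1 library left out, ranges were -0.0518 to 0.045 for Sc5d, -0.16 to 0.046 for Elovl6, -0.049 to 0.11 for Fads1, -0.0161 to 0.23 for Fads2, -0.23 to 0.019 for Stard4, -0.21 to 0.021 for Acaca and -0.000229 to 0.13 for Cdh1. The causes were not tested. The lowest count of any of the 32 genes in a library was 91, and the part of counting error in these sign changes was not tested.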
